A study of Mus musculus with 16 samples.

Results

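Lubricin, encoded by Prg4, is the lubricating protein of joint surfaces, and 12 of the 16 libraries of a study of the mouse quadriceps, the muscle at the front of the thigh, were chosen by its low level. A library was kept where Prg4 was below 100 CPM (the count divided by the library total, times 1000000). Of the 12, 6 came from limbs whose anterior cruciate ligament had been transected (injured) and 6 from healthy limbs. The question is what differs between injured and healthy quadriceps in libraries low in this joint marker, with the drug treatment held as a covariate.

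The injured libraries were inhibitor 1, 2, 3 and 4 and placebo 1 and 4, and the healthy libraries were inhibitor 2, 3 and 4 and placebo 1, 2 and 3. For 7 days after transection, inhibitor animals drank an unnamed inhibitor of CSF1-R, the receptor for the survival signal of macrophages, at 40 mg/kg, and placebo animals drank 0.5% sucrose. The treatment was thus given to the animals of both limbs, and 4 of 6 injured but 3 of 6 healthy libraries came from inhibitor animals. Library names share a stem between limbs, which was read as 1 animal, and inhibitor animals 2, 3 and 4 and placebo animal 1 kept both limbs. The deposited design text speaks of muscle before and after transection, and strain, sex and age are not given in the sources used here. A healthy limb was therefore the uninjured limb of an operated animal where the shared names are read in this way.

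Quadriceps of the mouse is built mostly of fast fibres that burn glycogen, with fewer slow and oxidative fibres that burn fatty acids. Fatty acids enter the fibre, are activated to acyl-CoA, cross into the mitochondrion on carnitine and are shortened by β-oxidation. Knee ligament injury is known for weakness and wasting of the quadriceps, and injured muscle typically takes up monocytes that become macrophages.

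The 12 libraries held 20.117 to 27.133 M (mega) counts and 16454 to 16869 genes above 0, and mitochondrial genes took 11.47 to 18.98% of the counts. A count of 3, the floor used here, was worth 0.1106 to 0.1491 CPM in a library, which covers counting error only. Prg4 itself ran between 3.759 and 17.85 CPM in the kept libraries. The library just inside the limit was healthy placebo 3, at 17.85 CPM, and the library just outside it was healthy inhibitor 1, at 167.9 CPM. The other libraries left out were injured placebo 2 at 257.3, injured placebo 3 at 317.6 and healthy placebo 4 at 263.5 CPM. Because Prg4 chose the libraries, it and the other joint genes are described without a test. Bglap and Ibsp, defining genes of bone, were at 0 in all 12 libraries, and Acan, the cartilage proteoglycan, was above 0 only in injured inhibitor 2, at 0.258 CPM. The bone marker Dmp1 was above 0 in all 12, at 0.187 to 0.454 CPM in injured and 0.133 to 0.568 CPM in healthy libraries. The cartilage collagen gene Col2a1 reached at most 0.654 CPM in injured and 0.487 CPM in healthy libraries. Col10a1, another cartilage marker, reached at most 0.161 CPM in injured libraries and was at 0 in all 6 healthy ones. Muscle markers were high in all 12: Ckm, muscle creatine kinase, was at 13370 to 19800 CPM in injured and 16090 to 23410 CPM in healthy quadriceps.

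No gene passed the test of injured against healthy quadriceps. Of 15786 genes tested with edgeR's quasi-likelihood test, 0 (0.0%) had a Benjamini-Hochberg adjusted p of at most 0.05, and the smallest adjusted p was 0.817. An unadjusted p under 0.05 was reached by 887 genes (5.62%), of which 481 (3.05%) were higher and 406 (2.57%) lower in injured quadriceps. All log2 differences below are injured minus healthy and carry their standard error (SE). Over all genes the median log2 difference was 0.00 and the median SE was 0.15. The median reach of the 95% interval was 0.33 to either side, a factor of 1.25. DESeq2, run as an alternative, called 4 of 15781 genes (0.0253%), and these were Cma1, Cotl1, Pank1 and Mpp3, each with an adjusted p of 0.036. The labels call the libraries biological replicates, and the p-values reflect only the spread among them.

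The genes with the smallest p among those higher in injured quadriceps included Pank1, Acsl1 and Tbc1d4, which act on coenzyme A, fatty acids and glucose. Levels are given below as CPM after scaling by the trimmed mean of M-values (TMM), as the lowest, median and highest of 6 libraries. Pank1 (ENSMUSG00000033610, chr19:34806940-34879455, GRCm38) encodes pantothenate kinase, the first step of coenzyme A synthesis. It was at 25.6, 31.2 and 40.9 CPM in injured and 15.4, 19.9 and 26.7 CPM in healthy quadriceps. The log2 difference was 0.61 ± 0.13, with an edgeR unadjusted p of 0.000191. The groups overlapped in this gene by a single pair of libraries, injured placebo 1 and healthy inhibitor 3, and all 4 animals with both limbs were higher on the injured side. Acsl1 (ENSMUSG00000018796, chr8:46471037-46536051) encodes the long-chain acyl-CoA synthetase that activates fatty acids in muscle. It was at 335, 356 and 411 CPM in injured and 250, 260 and 366 CPM in healthy libraries, a log2 difference of 0.37 ± 0.10. The only healthy library among the injured values was inhibitor 3. Tbc1d4, a brake on the transport of the glucose carrier GLUT4 to the cell surface, was at 71.4, 89.6 and 103 CPM in injured and 63.0, 70.7 and 81.8 CPM in healthy libraries, a log2 difference of 0.34 ± 0.08. Slc25a22, a mitochondrial glutamate carrier, gave 0.48 ± 0.12.

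Other genes of this set act outside metabolism. Cotl1 (ENSMUSG00000031827, chr8:119809222-119840544), which binds filamentous actin, was at 3.34, 4.39 and 5.78 CPM in injured and 1.59, 2.37 and 2.95 CPM in healthy libraries. The groups did not overlap, and the log2 difference was 0.92 ± 0.20. Such a gap with injured libraries on top was found in 15 of 15786 genes (0.095%), and with injured libraries below in 21 (0.133%). Egr1, an immediate early transcription factor, was at 9.06, 10.2 and 15.4 CPM in injured and 4.99, 7.05 and 10.5 CPM in healthy libraries, a log2 difference of 0.60 ± 0.17. Irak3, an inhibitor of toll-like receptor signalling in myeloid cells, gave 0.75 ± 0.21 at a healthy median of 2.19 CPM. The zinc finger genes Zfp280c and Zfp408 gave 0.48 ± 0.13 and 0.60 ± 0.17, and Fam208a, of the silencing complex HUSH, gave 0.41 ± 0.11. Zfp280c and Fam208a did not overlap between the groups. Cma1 (ENSMUSG00000022225, chr14:55941451-55944675), the chymase of mast cells, was at 1.29, 2.73 and 3.49 CPM in injured and 0.266, 0.735 and 1.60 CPM in healthy libraries. Its log2 difference of 1.69 ± 0.37 was the one of largest size that DESeq2 called, and all 4 animals with both limbs had it higher in the injured limb.

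**Figure D1:**
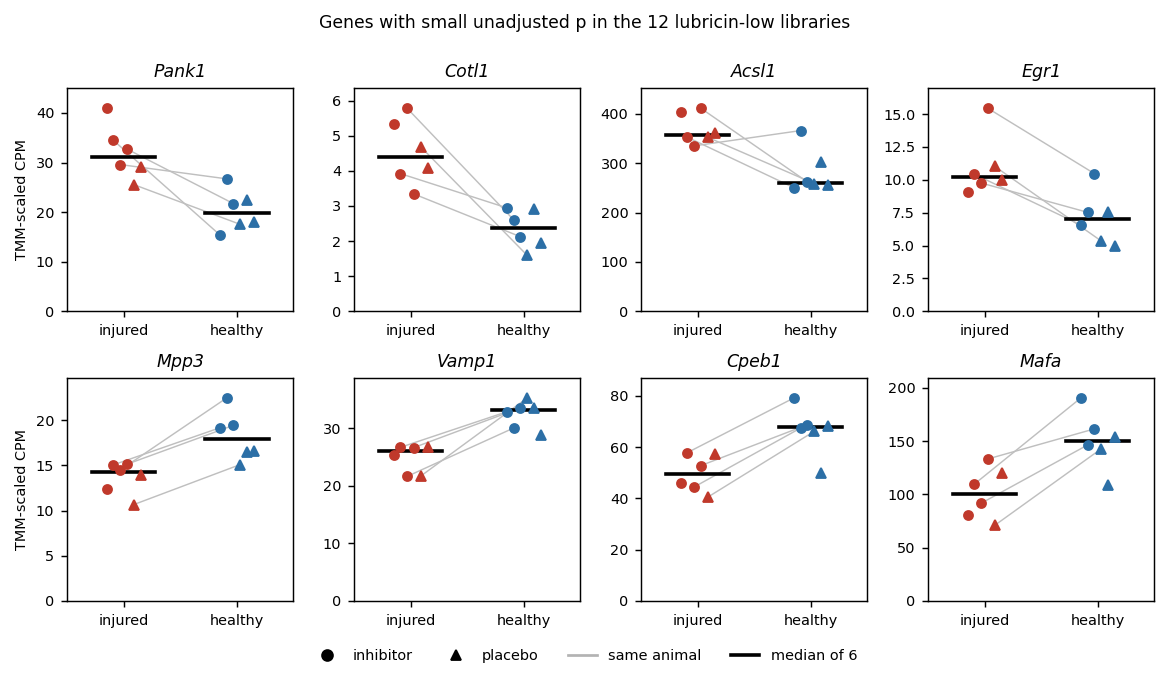
TMM-scaled CPM of 8 genes in the 12 lubricin-low libraries, with injured libraries in red on the left and healthy libraries in blue on the right of each panel, circles for inhibitor and triangles for placebo, black bars for the median of 6 and grey lines joining limbs of the same animal. Pank1, Cotl1, Acsl1 and Egr1 have their injured median above the healthy one and Mpp3, Vamp1, Cpeb1 and Mafa below it, with no overlap between the groups in Cotl1 and Vamp1.

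The genes with the smallest p among those lower in injured quadriceps included the scaffold gene Mpp3, the vesicle gene Vamp1 and the transcription factor gene Mafa. Mpp3 (ENSMUSG00000052373, chr11:101999652-102028461), a membrane scaffold of the MAGUK family, was at 10.7, 14.2 and 15.1 CPM in injured and 15.1, 17.9 and 22.5 CPM in healthy libraries. Its log2 difference was -0.46 ± 0.09, at an edgeR unadjusted p of 0.000146, and the groups touched at 15.1 CPM. Vamp1 (ENSMUSG00000030337, chr6:125215551-125245964), a SNARE protein of vesicle fusion known from nerve terminals, was at 21.6, 26.0 and 26.8 CPM in injured and 28.9, 33.2 and 35.3 CPM in healthy libraries. The groups did not overlap, and the log2 difference was -0.39 ± 0.08. Mafa, a large Maf transcription factor that in mouse muscle is known to drive the fast myosin Myh4, was at 71.0, 101 and 133 CPM in injured and 109, 150 and 191 CPM in healthy libraries. Its log2 difference was -0.60 ± 0.15, and it was lower in the injured limb of all 4 animals with both limbs. Cpeb1, which controls the poly(A) tails of mRNAs, gave -0.44 ± 0.11. The kinase gene Rps6ka1 gave -0.48 ± 0.12 and Ppp1r14c, an inhibitor of protein phosphatase 1, gave -0.33 ± 0.08. Hacd1, an enzyme of very long chain fatty acid elongation in muscle, gave -0.39 ± 0.11. Slc37a4, the glucose-6-phosphate carrier, gave -0.38 ± 0.11. Fam57b gave -0.37 ± 0.10 with no overlap between the groups. Under the 28 other settings of this comparison, none of the 20 genes with the smallest p, 10 in each direction, changed sign.

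Genes of fatty acid uptake and oxidation had small log2 differences that lay above 0. All 30 members of the list were tested and all 30 had a log2 difference above 0, where 50.6% of all genes did. The median difference was 0.25, against 0.00 over all genes, and 16 members were higher at an edgeR unadjusted p under 0.05, a level that 3.05% of all genes reached in this direction. None passed adjustment, and in no member were the groups apart. Between the limbs of the 4 animals with both, 15 of the 30 members were higher in every injured limb, as were 8.58% of all genes. The mean of the list was higher on the injured side in 3 of these 4 animals, by 0.57 in inhibitor animal 2, 0.40 in inhibitor animal 4 and 0.34 in placebo animal 1, and it was -0.11 in inhibitor animal 3.

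By role, the members spread from uptake to the last step of the cycle. At uptake, Cd36, the fatty acid carrier of the cell surface, was at 256, 310 and 446 CPM in injured and 149, 241 and 306 CPM in healthy libraries, a log2 difference of 0.53 ± 0.20. Fabp3, which carries fatty acids in the cytosol of muscle, gave 0.56 ± 0.20. Lpl, which frees fatty acids from lipoproteins, was at 658, 1091 and 1404 CPM in injured and 377, 638 and 1112 CPM in healthy libraries, and its difference of 0.62 ± 0.29 had an interval from -0.02 to 1.26. The carnitine shuttle had small differences: Slc25a20, the carnitine carrier of the inner membrane, gave 0.25 ± 0.08 and Cpt1b, the muscle carnitine palmitoyltransferase, 0.15 ± 0.07. Among enzymes of β-oxidation, Acadl, a long-chain acyl-CoA dehydrogenase, was at 174, 220 and 273 CPM in injured and 133, 161 and 222 CPM in healthy libraries, a difference of 0.42 ± 0.14. Hadha, a subunit of the trifunctional protein, gave 0.23 ± 0.09 and the thiolase gene Acaa2 0.40 ± 0.15. Etfdh, which passes the electrons of β-oxidation to ubiquinone, was at 101, 111 and 139 CPM in injured and 79.7, 88.0 and 114 CPM in healthy libraries, a difference of 0.32 ± 0.09.

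Genes that store or divert fatty acids lay on the same side. Plin5, a coat protein of the lipid droplets that face mitochondria, was at 16.6, 23.2 and 26.8 CPM in injured and 9.18, 16.1 and 19.7 CPM in healthy libraries, a log2 difference of 0.58 ± 0.19. Acot2, a mitochondrial acyl-CoA thioesterase, gave 0.58 ± 0.23. Pdk4, a kinase that turns pyruvate dehydrogenase off when fat is burned, was at 495, 912 and 1356 CPM in injured and 168, 322 and 1131 CPM in healthy libraries. Its difference of 0.71 ± 0.33 had an interval from -0.01 to 1.44, so its size was poorly set.

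**Figure D2:**
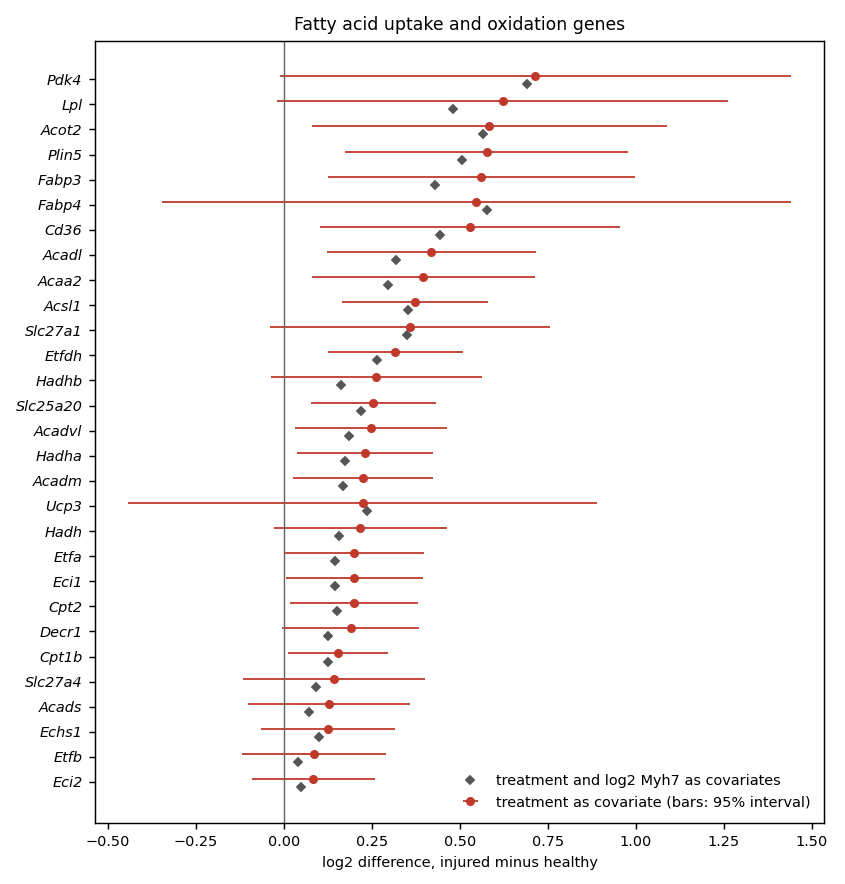
Log2 differences (injured minus healthy) of 29 of the 30 fatty acid genes in the 12 libraries, with red circles and 95% intervals for the fit with treatment as covariate and grey diamonds for the fit that adds log2 Myh7. All red circles and all grey diamonds lie above 0, and 16 red intervals leave 0 out.

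Many genes of fatty acid oxidation are textbook targets of the PPAR nuclear receptors, which bind repeats of the core motif AGGTCA. The promoters of Plin5, Cd36 and Ucp3 are shown because they are the members of uptake, storage and mitochondrial uncoupling that hold this motif. Each is the 250 bases before a RefSeq transcription start on GRCm38.p6, written 5′ to 3′ on the gene's strand, with core motifs on either strand in capitals. The Plin5 promoter shown is chr17:56117549-56117798 (minus strand), that of Cd36 is chr5:17835897-17836146 (minus strand) and that of Ucp3 is chr7:100472741-100472990 (plus strand). Another Plin5 promoter, chr17:56117299-56117548, held 0 core motifs, and Plin5 is counted below through the one shown.
Plin5: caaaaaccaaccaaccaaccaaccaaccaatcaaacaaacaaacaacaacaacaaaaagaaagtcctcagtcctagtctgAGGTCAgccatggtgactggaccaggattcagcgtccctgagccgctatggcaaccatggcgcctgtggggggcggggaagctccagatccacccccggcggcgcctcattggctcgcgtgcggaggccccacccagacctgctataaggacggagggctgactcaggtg
Cd36: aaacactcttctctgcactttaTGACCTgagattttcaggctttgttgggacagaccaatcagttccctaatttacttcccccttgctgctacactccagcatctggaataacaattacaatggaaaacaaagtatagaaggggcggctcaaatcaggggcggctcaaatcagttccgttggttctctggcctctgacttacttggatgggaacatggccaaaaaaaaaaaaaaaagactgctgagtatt
Ucp3: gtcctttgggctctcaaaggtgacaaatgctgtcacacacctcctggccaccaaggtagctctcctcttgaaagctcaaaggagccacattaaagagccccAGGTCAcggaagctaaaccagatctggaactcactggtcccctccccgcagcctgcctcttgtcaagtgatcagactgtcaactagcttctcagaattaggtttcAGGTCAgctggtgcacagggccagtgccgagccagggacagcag
Of the 30 members, 24 had a promoter in the table, and 6 of these 24 (25.0%) held it on either strand, namely Cd36, Acadm, Acadvl, Echs1, Ucp3 and Plin5. Of all 26734 genes in the table, 15.8% did. A direct repeat of the core motif with 1 base between the copies was found in 0 of 24, against 0.0411% of all genes, and the element TCAAGGTCA, which contains the core motif, in 0 of 24, against 0.411%. A match is a description of these letters, and no binding was measured here. Ucp3, the uncoupling protein of muscle, held 2 core motifs and had a log2 difference of 0.22 ± 0.30, with an interval from -0.44 to 0.89.

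The slow-fibre content of the libraries varied and moved in part with the fatty acid genes. Myh7, the myosin heavy chain of slow fibres, was at 17.5, 585 and 1511 CPM in injured and 5.37, 155 and 755 CPM in healthy libraries. The highest values were those of injured inhibitor 1, 2 and 3, at 1511, 1223 and 756 CPM, while injured placebo 4 had 17.5 CPM. All 20 slow-fibre genes had log2 differences above 0, with a median of 0.70, and 0 of them reached an edgeR unadjusted p under 0.05. That count was 4 without injured placebo 4, 3 without healthy inhibitor 3 and 6 once healthy placebo 2 was dropped. The range of the share of all genes in such fits is given below with the macrophage markers. Without injured inhibitor 1 and 2, a choice made after seeing the data, 12 of the 20 were above 0 with a median of 0.16. Left out one at a time, healthy inhibitor 2 brought the median to 0.31, healthy inhibitor 4 to 0.40 and injured inhibitor 1 to 0.42, while it was 1.18 without injured placebo 4, 1.30 without healthy inhibitor 3 and 1.22 once healthy placebo 2 was dropped. With the animal as a replicate block the median was 1.40 and 8 members were higher at an unadjusted p under 0.05, as were 4.52% of all genes in that fit. The mean of the slow-fibre genes followed log2 Myh7 over the 12 libraries at r = 0.97. Myh7 is itself a slow-fibre gene, so this r is no separate evidence. The mean of genes that respond to denervation followed it at r = 0.81, that of the fatty acid genes at r = 0.62 and that of the macrophage markers at r = 0.19.

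With log2 Myh7 added as a covariate, also after seeing the data, all 30 fatty acid genes had differences above 0 (49.5% of all genes did), the median was 0.19 and 13 were higher at an edgeR unadjusted p under 0.05, against 2.5% of all genes. The count of 16 was 8 without healthy inhibitor 2, 9 without healthy inhibitor 4, 10 without injured inhibitor 1 and 6 without both injured inhibitor 1 and 2, where 2.19%, 1.99%, 2.43% and 3.16% of all genes reached that level. In each of these fits all 30 members had differences above 0. Over all fits that leave out 1 library, 28 to 30 members did, and 29 did within inhibitor and 28 within placebo libraries. Over all settings tried, the median of the fatty acid list ran from 0.07 to 0.32. Myh7 stands for slow fibres only. The muscle markers Myh2 and Mb were also higher in injured libraries. Myh2 was at 1973, 3909 and 4635 CPM in injured and 1308, 1516 and 3731 CPM in healthy libraries. Mb was at 1022, 1684 and 2578 CPM in injured and 758, 968 and 1612 CPM in healthy libraries. Neither was used as a covariate, and the part of fibre content in the differences was not tested further.

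**Figure D3:**
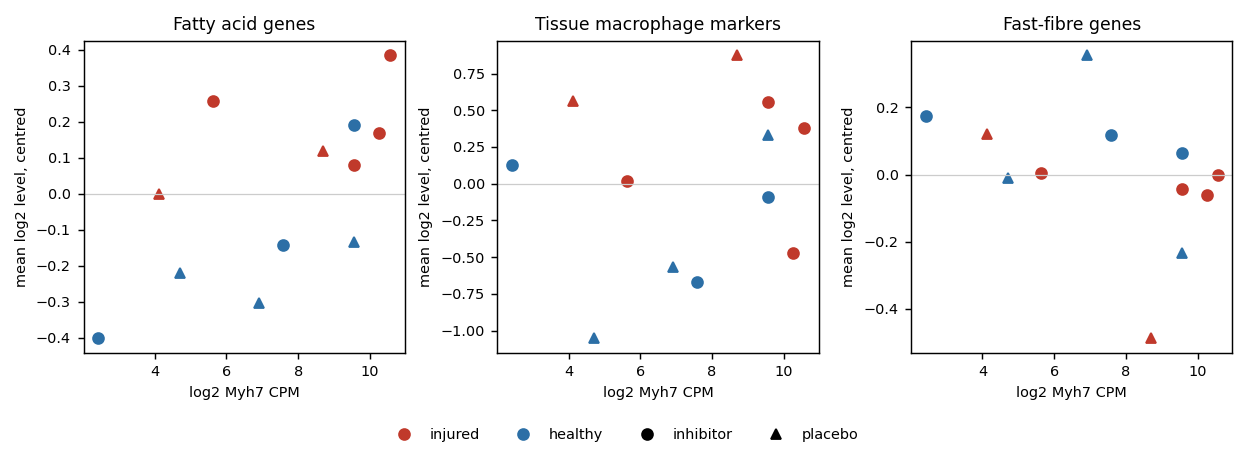
Mean log2 level of 3 gene lists (each gene centred on its mean over the 12 libraries) against the log2 CPM of Myh7 in each library, in red for injured and blue for healthy, circles for inhibitor and triangles for placebo. Fatty acid genes lie between -0.001 and 0.386 in injured and between -0.401 and 0.192 in healthy libraries, and healthy inhibitor 3 is the only healthy library above 0.

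Fast-fibre genes lay on the other side. Of 21 fast-fibre genes of the sarcomere and calcium handling, 19 had log2 differences below 0, where 49.4% of all genes did, with a median of -0.26, and 3 were lower and 1 higher at an edgeR unadjusted p under 0.05. Of all genes, 2.57% were lower and 3.05% higher at that level. The list median was -0.16 when injured placebo 1 or healthy placebo 3 was left out, and -0.40 when injured placebo 4 was. Casq1, the calcium store protein of fast fibres, was at 1575, 2129 and 2599 CPM in injured and 2222, 2533 and 2988 CPM in healthy libraries, a difference of -0.33 ± 0.12. Pvalb, the calcium buffer parvalbumin, gave -0.43 ± 0.18. The myosins of the list did not lie on 1 side: Myh4, of the fastest fibres, had -0.32 ± 0.20 and an interval from -0.74 to 0.11, while Myh1, of the fast fibres next to it, had 0.44 ± 0.18. Myh1 was at 5878, 6996 and 9405 CPM in injured and 3934, 4696 and 7578 CPM in healthy libraries and was higher in the injured limb of all 4 animals with both. In those animals 14 of the 21 genes were lower in every injured limb, as were 1584 of all 15786 genes (10%). With the animal as a replicate block, 13 were lower at an unadjusted p under 0.05, as were 5.0% of all genes in that fit. Leaving out 1 library gave from 0 to 15 members lower at that level, with 0 without injured placebo 1 or healthy inhibitor 2, 1 without injured inhibitor 3 or healthy placebo 3, 11 without injured placebo 4 and 15 once healthy placebo 2 was dropped.

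The mitochondrial machinery that receives the electrons had medians nearer to 0 than the fatty acid genes. Of 46 genes of oxidative phosphorylation, 34 had log2 differences above 0 with a median of 0.04, and 0 reached an edgeR unadjusted p under 0.05. Within inhibitor libraries 43 of the 46 were above 0, with a median of 0.15, and within placebo libraries 1 of the 46, with a median of -0.13. The difference between treatments was not tested over the list. Without injured inhibitor 1 and 2, 10 of the 46 were above 0. Cox5a, a subunit of cytochrome c oxidase, was 0.01 ± 0.10 with an interval from -0.19 to 0.22. The 15 mitochondrially encoded genes had a median of 0.07, the 20 genes of the tricarboxylic acid cycle 0.05 and the 19 genes around PGC-1 and the oestrogen-related receptors 0.10. These 3 medians were 0.18, 0.12 and 0.14 within inhibitor and -0.06, -0.05 and -0.01 within placebo libraries. Perm1, a muscle regulator of mitochondrial genes, gave 0.33 ± 0.16, and Ppargc1a, which encodes PGC-1α, 0.22 ± 0.11. Of 25 genes of glycolysis and glucose uptake, 8 were above 0, with a median of -0.18 and 1 lower at an unadjusted p under 0.05. Dropping injured placebo 1 brought that median to -0.06, and dropping healthy placebo 3 brought it to -0.10.

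**Figure D4:**
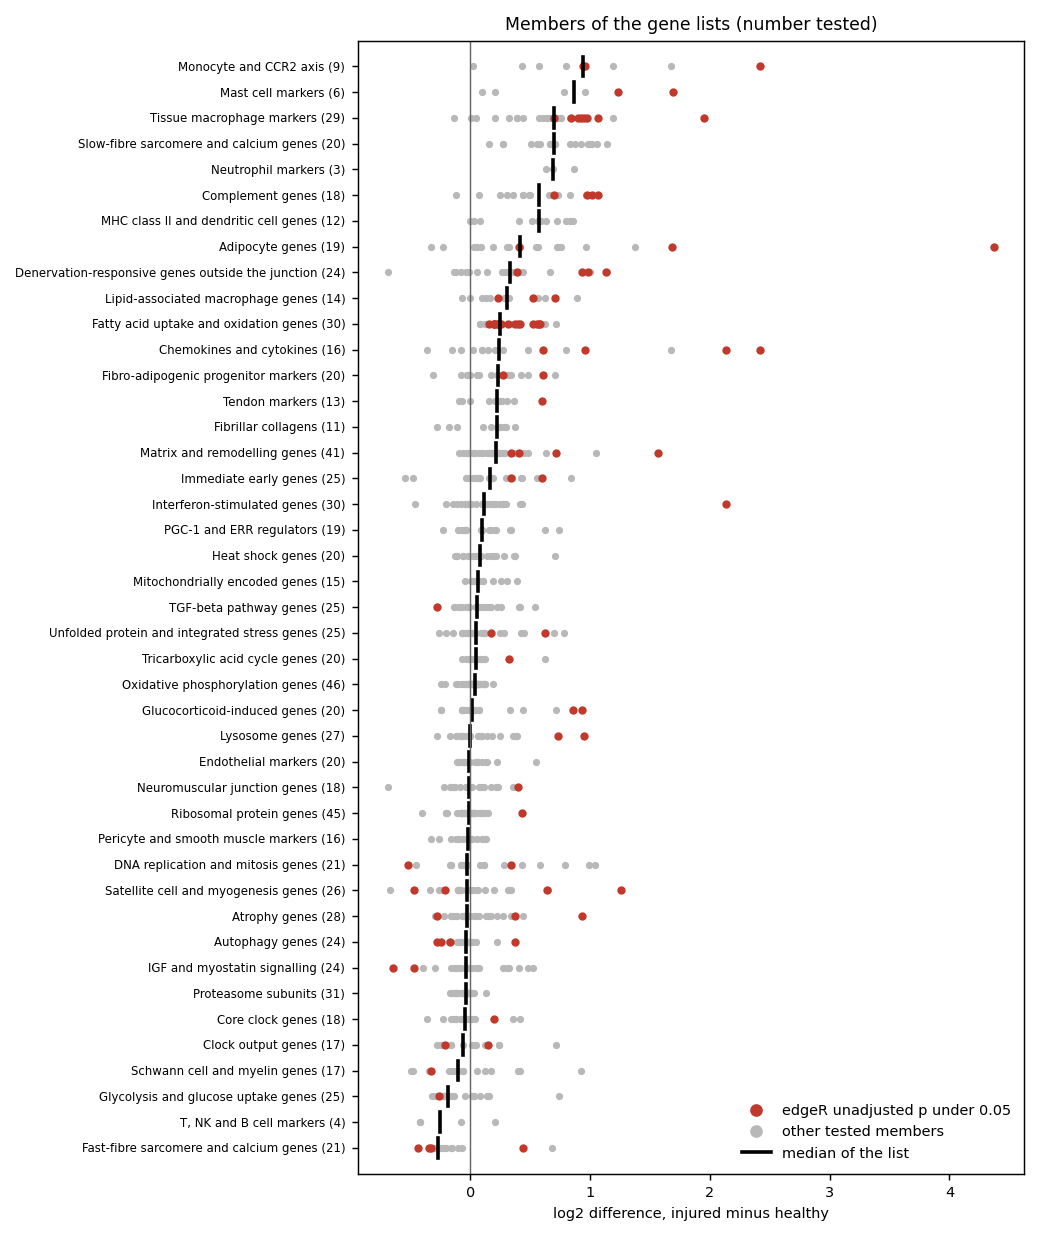
Log2 differences (injured minus healthy) of the tested members of the gene lists in the 12 libraries, joint and bone lists left out, and ordered by median from top to bottom, with a black bar for the median, red points for an edgeR unadjusted p under 0.05 and grey points for the rest. Monocyte, mast cell and macrophage lists have medians of 0.95, 0.87 and 0.70 at the top, fast-fibre genes have -0.26 at the bottom, and the fatty acid list holds 16 red points.

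Markers of monocytes, macrophages and mast cells were mostly above 0. Here, as in any bulk tissue, more cells of a type and more RNA per cell cannot be told apart. Of 29 tissue macrophage markers, 28 had log2 differences above 0 (50.6% of all genes did), with a median of 0.70, and 8 were higher at an edgeR unadjusted p under 0.05 (3.05% of all genes were). C1qa and C1qb, complement genes of macrophages, gave 0.70 ± 0.27 and 0.98 ± 0.31. C1qa was at 3.20, 5.32 and 8.03 CPM in injured and 1.82, 3.09 and 4.70 CPM in healthy libraries, so that the groups overlapped. Csf1r, the target of the inhibitor, was at 5.88, 9.71 and 15.9 CPM in injured and 1.78, 5.08 and 12.5 CPM in healthy libraries, a difference of 0.76 ± 0.44 with an interval from -0.21 to 1.73. Its ligand genes Csf1 and Il34 were at 0.15 ± 0.15 and 0.02 ± 0.19. Of 14 markers of monocytes and the CCR2 axis, 9 passed the filter on low counts, which injured libraries alone could satisfy. All 9 were above 0, with a median of 0.95. Leaving out 1 library moved that median from 0.71 (injured inhibitor 3) to 1.13 (healthy placebo 2). Of the 4 animals with both limbs, 3 had a higher list mean on the injured side, and inhibitor animal 2 had -0.17. The summed level of the list had a median of 131 CPM in injured and 127 CPM in healthy libraries. Ccr2, the receptor that draws monocytes into tissue, was at 1.81, 3.57 and 7.59 CPM in injured and 1.25, 2.21 and 3.23 CPM in healthy libraries, a difference of 0.95 ± 0.36. Of 9 mast cell markers, 6 were counted, and these passed the same filter, which injured libraries alone could satisfy. Their summed level was 6.86 to 14.85 CPM in injured and 2.39 to 12.01 CPM in healthy libraries. All 6 were above 0, with a median of 0.87, and Cma1 above is the one with the smallest p. That median was 0.65 without healthy inhibitor 4 and 1.41 without healthy inhibitor 2, and leaving out 1 library kept 5 or 6 markers above 0. The list mean was higher on the injured side in 3 of the 4 animals with both limbs, and inhibitor animal 2 had -0.52.

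The macrophage counts depended on the libraries kept. The median of the 29 markers was 0.31 within inhibitor and 1.16 within placebo libraries, and 24 of 29 and 28 of 29 were above 0, a difference between treatments that was not tested over the list. Over the 4 animals with both limbs, the mean of the list was higher on the injured side in 3, and inhibitor animal 2 had -0.60. The count of 8 at an unadjusted p under 0.05 was 3 without injured inhibitor 3 or injured placebo 1, 4 without healthy placebo 3, 5 without injured inhibitor 1 or injured placebo 4, and 13 without injured inhibitor 2. In the fits that leave out 1 library, 1.92% to 5.42% of all genes reached that level. With the animal as a replicate block the count was 2, against 4.52% of all genes. The summed level of the list was 407 to 562 CPM in injured and 422 to 532 CPM in healthy libraries.

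Related immune genes followed with smaller counts. Of 18 complement genes, 17 were above 0 with a median of 0.58, and 4 were higher at an edgeR unadjusted p under 0.05 (3.05% of all genes were). That count was 10 without injured inhibitor 2, 8 without healthy placebo 2 and 7 without healthy inhibitor 3. The range of the share of all genes in such fits is given above with the macrophage markers. Of 12 genes of MHC class II and dendritic cells, 11 were above 0 with a median of 0.58, and 0 reached that level. Their median was 0.09 within inhibitor libraries, with 8 of 12 above 0, and 1.06 within placebo libraries, with 12 of 12. For the complement genes these medians were 0.25 and 0.96. The difference between treatments was not tested over either list. Inhibitor animal 2 had list means of -0.67 for MHC class II and -0.65 for complement, injured minus healthy. Of 24 genes of chemokines and cytokines that were counted, 16 passed the filter on low counts. Their median was 0.24 (0.17 without healthy placebo 1 and 0.39 without healthy placebo 2). The median of 14 lipid-associated macrophage genes was 0.30 and that of 30 interferon-stimulated genes 0.12. The interferon median was 0.06 without injured placebo 1, 0.26 without healthy inhibitor 3, 0.07 without healthy inhibitor 4 and 0.04 without healthy placebo 3. Ccl6, a chemokine of myeloid cells, gave 0.96 ± 0.31. Cxcl10, an interferon-induced chemokine, rested on injured placebo 1 at 3.34 CPM and injured inhibitor 4 at 0.825 CPM, and no other library was above 0.280 CPM. It thus passed the filter on low counts through injured libraries alone. The lysosome list, 27 genes, had a median of 0.00. Neutrophil and lymphocyte lists kept only 3 and 4 members that passed the filter on low counts.

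Genes of myogenesis, the neuromuscular junction and muscle wasting had medians near 0. Of 26 satellite cell and myogenesis genes, 12 were above 0 with a median of -0.03, with 2 higher and 2 lower at an edgeR unadjusted p under 0.05. Myog, a transcription factor of myogenic differentiation, was at 2.86, 4.26 and 7.07 CPM in injured and 3.10, 3.86 and 6.01 CPM in healthy libraries, a difference of 0.05 ± 0.21 with an interval from -0.39 to 0.50. Myh3, the embryonic myosin, gave 1.26 ± 0.43 at a healthy median of 2.71 CPM. The 18 junction genes had a median of -0.01, and Chrna1, a subunit of the acetylcholine receptor, gave 0.36 ± 0.17. Of 24 genes that respond to loss of the nerve supply, 18 were above 0, with a median of 0.33, and 4 were higher at that level (3.05% of all genes were). The mean of this list moved with slow-fibre Myh7, as given above. With log2 Myh7 as a covariate 19 of the 24 were above 0, with a median of 0.28. In that fit 4 were higher at that level, against 2.5% of all genes. Rrad, a small GTPase, gave 1.14 ± 0.45, Ankrd1, a stretch-responsive ankyrin repeat protein, 0.99 ± 0.41 and Ampd3, an AMP deaminase, 0.39 ± 0.13. Of the 24, 9 were higher in the injured limb of all 4 animals with both, as were 8.58% of all genes. The count of 4 was 1 without injured placebo 1, 2 without injured inhibitor 3, healthy inhibitor 4 or healthy placebo 1, and 7 without injured placebo 4, and it was 10 with the animal as a replicate block. The shares of all genes in such fits are given above with the macrophage markers.

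Of 28 atrophy genes, 13 were above 0 with a median of -0.03, with 2 higher and 1 lower at an edgeR unadjusted p under 0.05. The ubiquitin ligase genes Fbxo32 and Trim63 were at -0.13 ± 0.27 (interval -0.74 to 0.47) and -0.12 ± 0.19 (-0.53 to 0.30). Fbxo32 was at 206, 541 and 758 CPM in injured and 390, 593 and 811 CPM in healthy libraries. Of 31 proteasome subunits, 6 were above 0, the median was -0.04 and 0 reached an unadjusted p under 0.05. Mstn, which encodes the growth inhibitor myostatin, was at 54.1, 63.3 and 81.8 CPM in injured and 47.0, 83.8 and 99.0 CPM in healthy libraries, a difference of -0.30 ± 0.17. It was lower in the injured limb of all 4 animals with both. Of 24 autophagy genes, 6 were above 0. Gabarapl1, which coats autophagosomes, gave 0.38 ± 0.12, and Tfeb, a transcription factor of lysosome and autophagy genes, gave -0.24 ± 0.08. Igfbp5, an IGF-binding protein of muscle, was at 314, 427 and 499 CPM in injured and 441, 537 and 883 CPM in healthy libraries, a difference of -0.47 ± 0.15. Smad3, a transducer of TGF-β and myostatin signals, gave -0.27 ± 0.09. Glucocorticoid-induced genes had a median of 0.02, and Mt2, a metallothionein among them, gave 0.93 ± 0.33.

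Matrix and stromal genes were mostly above 0 with wide errors. Of 41 matrix and remodelling genes, 36 had log2 differences above 0 with a median of 0.21, and 4 were higher at an edgeR unadjusted p under 0.05 (3.05% of all genes were). That count was 1 without injured inhibitor 3, 2 without injured placebo 1 or healthy inhibitor 4, 7 without injured inhibitor 2 or healthy placebo 2, and 8 with the animal as a replicate block. The shares of all genes in such fits are given above with the macrophage markers. The list median was 0.12 without injured inhibitor 3 and 0.11 without healthy placebo 1. Col14a1, a collagen of fibroblasts, was at 8.46, 8.64 and 16.5 CPM in injured and 2.50, 5.89 and 9.09 CPM in healthy libraries, a difference of 0.72 ± 0.25. Col1a1, the main fibrillar collagen, was at 42.9, 84.1 and 202 CPM in injured and 16.8, 71.6 and 115 CPM in healthy libraries, and its interval ran from -0.71 to 1.21. Fibro-adipogenic progenitor markers had a median of 0.23, but 0.09 without healthy placebo 1, 0.11 without injured placebo 4 and 0.14 without healthy inhibitor 4. Tendon markers also had 0.23. Leaving out 1 library brought it to 0.10 (healthy placebo 1), 0.11 (injured inhibitor 3), 0.12 (healthy inhibitor 2) or 0.13 (injured placebo 1), and to 0.34 (healthy placebo 3) or 0.37 (healthy inhibitor 3 or injured placebo 4). Endothelial markers were at -0.01, pericyte markers at -0.01 and Schwann cell genes at -0.10. Adipocyte genes had a median of 0.42, and Adipoq, the fat cell hormone, ran from 1.91 to 97.7 CPM in injured and from 3.27 to 44.2 CPM in healthy libraries. With the animal as a replicate block the adipocyte median was -0.42, the opposite side of 0, and it was 0.12 without injured inhibitor 4 and 0.78 without healthy inhibitor 3. With log2 Adipoq as a covariate, 29 of 30 fatty acid genes were above 0 and 17 were higher at an unadjusted p under 0.05.

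Clock and stress lists had medians near 0. Of 18 core clock genes, 5 were above 0 with a median of -0.04, and Per2, a clock repressor, was at 0.36 ± 0.26. Immediate early genes had 21 of 25 above 0, with a median of 0.16 (0.10 without injured inhibitor 4). Heat shock genes had a median of 0.08 and genes of the unfolded protein and integrated stress responses 0.05, with Nupr1, a stress-induced cofactor, at 0.62 ± 0.18. The 21 genes of DNA replication and mitosis had a median of -0.02, and Aurka, a mitotic kinase, gave -0.52 ± 0.15. Ribosomal protein genes had a median of -0.01.

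The injury effect was next compared between treatments, 4 injured and 3 healthy inhibitor libraries against 2 injured and 3 healthy placebo libraries. No gene passed the edgeR test of the difference (0 of 15786, 0.0%), and 390 (2.47%) had an unadjusted p under 0.05. Within inhibitor libraries 0 genes passed and 539 (3.41%) had an unadjusted p under 0.05, and within placebo libraries 0 and 621 (3.93%). The fatty acid median was 0.32 within inhibitor and 0.20 within placebo libraries, and that of fast-fibre genes -0.22 and -0.23. The slow-fibre median was 1.29 within inhibitor and 0.14 within placebo libraries. Apod, a lipid carrier, was at -0.09 within inhibitor and 0.79 within placebo libraries, with an unadjusted p of 0.00139 for the difference in edgeR. For Mstn the values were -0.58 and 0.11, at an edgeR unadjusted p of 0.03. Cox5a was at 0.17 and -0.22, Kcnc1, a potassium channel, at 0.14 and -0.22, and Irf2bp2, a transcriptional corepressor, at -0.03 and -0.08.

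The injury effect in lubricin-low libraries was last set against that in the 4 libraries left out, 2 injured (both placebo) and 2 healthy, in 1 edgeR fit of all 16. The difference of the effects passed in 5 of 15411 genes (0.0324%), and 1516 (9.84%) had an unadjusted p under 0.05. These 5 were named after their values were seen, and levels in this fit are scaled over 16 libraries. Myog was at 2.94, 4.37 and 7.27 CPM in the lubricin-low injured libraries, but at 44.6 and 33.7 CPM in the lubricin-high injured ones. The effect was 0.06 ± 0.20 in lubricin-low and 2.85 ± 0.34 in lubricin-high libraries, a difference of -2.79 ± 0.40 (edgeR adjusted p = 0.0315). Tubb6, a tubulin known to be raised in regenerating muscle, had effects of 0.29 ± 0.17 and 2.43 ± 0.30 (adjusted p = 0.0487), and Igf2, a fetal growth factor, -0.10 ± 0.14 and 1.67 ± 0.25 (adjusted p = 0.0487).

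Pank1 and Tbc1d4 differed in the other direction. Pank1 was at 26.3, 32.0 and 41.9 CPM in lubricin-low injured libraries, against 10.9 and 13.8 CPM in the lubricin-high injured ones, while healthy libraries were at 15.8, 20.4 and 27.5 CPM in the low and 29.9 and 22.4 CPM in the high class. The effects were 0.61 ± 0.12 and -0.94 ± 0.22, a difference of 1.56 ± 0.26 (edgeR adjusted p = 0.0487). Tbc1d4 had 0.34 ± 0.09 and -0.82 ± 0.16, a difference of 1.16 ± 0.19 (adjusted p = 0.0487). All 30 fatty acid genes had a larger effect in the lubricin-low libraries, as did 48.6% of all genes, with a median effect of 0.24 in the low and -0.47 in the high class. This was not particular to them. All 20 tricarboxylic acid cycle genes, all 15 mitochondrially encoded genes and 42 of 46 oxidative phosphorylation genes did the same. Their median effects were 0.04, 0.05 and 0.03 in the low and -0.33, -0.42 and -0.20 in the high class. Macrophage and collagen genes also had other levels in lubricin-high libraries, except that healthy inhibitor 1 lay within the lubricin-low range in Csf1r and Col1a1. Csf1r was at 63.8 and 60.0 CPM in their injured and 14.5 and 29.9 CPM in their healthy libraries, against at most 16.4 CPM in the lubricin-low libraries. C1qa was at 66.8 and 51.7 CPM in injured and 12.03 and 29.37 CPM in healthy lubricin-high libraries, against at most 8.22 CPM in lubricin-low libraries. Col1a1 was at 1469 and 655.7 CPM in injured and 115.0 and 2095 CPM in healthy lubricin-high libraries, against at most 207.9 CPM in lubricin-low libraries. The part of these markers in the differences was not tested. None of these 30 fatty acid genes passed, and Acsl1 had a difference of 0.92 ± 0.23 (edgeR adjusted p = 0.269). In a fit of all 16 libraries without the class, 26 of the 30 were above 0 with a median of 0.09 and 0 were at an unadjusted p under 0.05. When single libraries were left out of the 16, Myog passed in 10 of 16 fits. Without one of the 4 lubricin-high libraries, a group of that class has 1 library, which is assumed to vary like the others. The edgeR adjusted p of Myog was 0.0784 without injured inhibitor 4, 0.163 without injured placebo 2, 0.0614 without healthy placebo 1, and 0.301, 0.061 and 0.0851 without healthy inhibitor 1, 3 and 4. Tbc1d4 passed in 4 fits, those without injured inhibitor 3, injured placebo 3, healthy placebo 3 or healthy placebo 4. Tubb6 passed in 3, without injured inhibitor 3, injured placebo 4 or healthy placebo 4, and Igf2 in 3, without injured inhibitor 3, injured placebo 2 or healthy placebo 4. Pank1 passed in 1, without healthy placebo 4. The edgeR adjusted p of these 4 genes ran up to 0.301 for Tubb6, 0.461 for Igf2, 0.352 for Pank1 and 0.306 for Tbc1d4, while all 5 genes kept their sign. The difference of Myog stayed between -3.03 and -2.56. Both injured libraries of the high class are from placebo animals, so class and treatment cannot be told apart in the injured limbs of the high class.

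**Figure D5:**
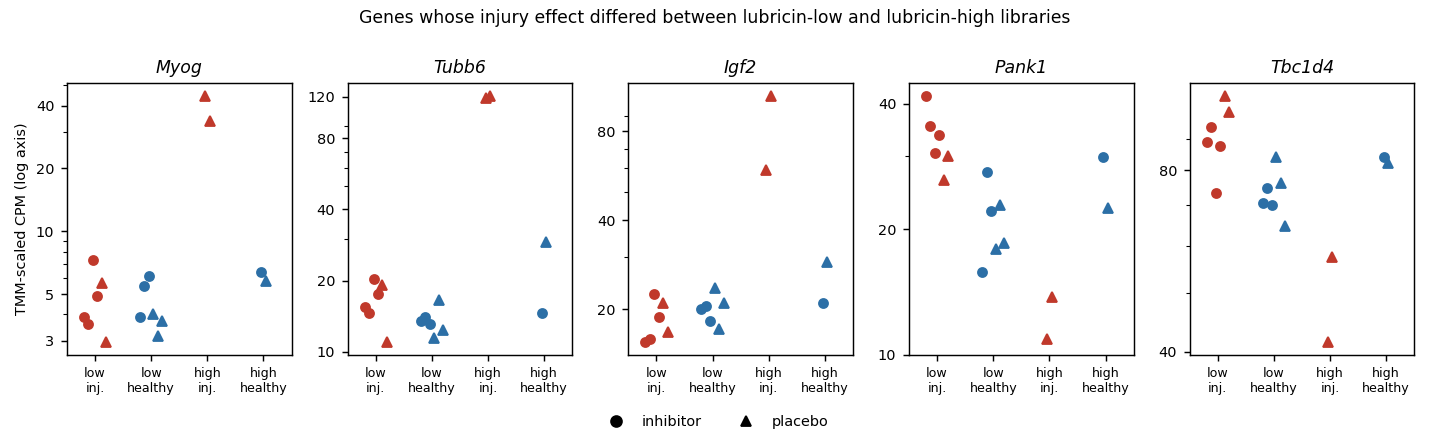
TMM-scaled CPM (log axis) of the 5 genes whose injury effect differed between lubricin-low and lubricin-high libraries, one point per library, red for injured and blue for healthy, circles for inhibitor and triangles for placebo. In Myog, Tubb6 and Igf2 the 2 lubricin-high injured libraries lie above every other library, and in Pank1 and Tbc1d4 they lie below every other library.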

How the data were processed

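Total RNA of mouse quadriceps was isolated with TRIzol and a Zymo MicroPrep kit, per the labels' protocols. The authors estimated counts per Ensembl gene and deposited these expected counts in 1 table, without normalization as far as the values show. STAR, Partek, DESeq2 and GRCm38/mm10 are named per the submitters' processing notes, with no role, order or version. Of the deposited values 33.8% were not whole, and counts were rounded here. The table held 17370 genes, and the smallest maximum of a gene was 10. Strand handling is not given in the sources used here. Symbols and coordinates came from GENCODE M21.

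The libraries and gene lists were chosen with earlier results of these data known. edgeR 4.0.16 (R 4.3.3) filtered genes (filterByExpr, minimum count 10), scaled by TMM and fitted limb and treatment to 12 libraries with robust quasi-likelihood (common biological coefficient of variation 0.211, with 9 degrees of freedom left). In the 12 libraries the filter asks for enough counts in as many libraries as the smallest group of limb and treatment holds. That group is injured placebo, so a gene could pass on injured libraries alone. p-values were two-sided and adjusted by Benjamini-Hochberg over 15786 genes at 0.05. The SE is the size of the log2 difference divided by the root of the F statistic. The difference by lubricin class was fitted to 16 libraries and 15411 genes. The scripts were tested on simulated data.

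The genes named were the 10 of each direction with the smallest p (mean log2 CPM of at least 1, no predicted genes), the 2 members of each list with the smallest p, and fixed genes. The text prints a subset, and some items are not reported here. The other fatty acid genes, myosins and list members given for their role, and the 3 promoters, were chosen after their values were seen. The 45 lists held 943 genes, of which 855 were tested.

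Shared name stems give 4 animals with both limbs, and the correlation of the deviations of their libraries from group means was -0.09, 0.02, -0.15 and 0.09, so the stems alone pair them. Alternatives were DESeq2 1.42.0 and its size factors, no filter, limma 3.58.1 (voom, quality weights or the correlation within animals), the animal as a block, the paired animals alone, other treatment terms, 16 libraries and each library left out. Figures used matplotlib 3.10.9 (Python 3.11.15).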

Additional observations from a re-analysis of the deposited data

Results flagged for a closer look

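Egr1 in injured inhibitor 4, at 15.4 CPM, stood apart from the other 5 injured libraries, with a gap of 0.633 of the range of the group. Col1a1 in healthy placebo 1, at 16.8 CPM, lay below the other 5 healthy libraries, with a gap of 0.702 of the range. Of 74 groups of 6 values looked at in this way, 2 were flagged, and chance flags about 1 in 20.

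For 5 genes the edgeR test of the difference itself set the injury effect of lubricin-low libraries apart from that of lubricin-high libraries. The log2 differences of the effects were -2.79 for Myog, -2.14 for Tubb6, -1.77 for Igf2, 1.16 for Tbc1d4 and 1.56 for Pank1, with adjusted p of 0.0315 for Myog and 0.0487 for the other 4. The lubricin-high class held 2 injured and 2 healthy libraries, and the part of its macrophage and collagen gene levels in these differences was not tested.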

How the results depend on the processing

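In the 12 libraries, 0 genes passed under edgeR. The same held under 27 of 28 alternatives, and DESeq2 called 4. The alternatives included fits of all 16 libraries, of either treatment alone and those that leave out 1 library (0 to 0). With the animal as a replicate block 0 genes passed, with 3 residual degrees of freedom. The tests within treatments and of the difference between treatments also gave 0 in each alternative run. For the difference by lubricin class, 5 genes passed under edgeR, 68 under DESeq2, 9 under limma-voom with quality weights and 2 with log2 Myh7 as a covariate, and leaving out 1 library gave 0 to 36, with 36 without healthy placebo 4. Leaving out a lubricin-high library puts 1 library in a group, whose spread is then taken from the others. The cause of these changes was not tested. The Myh7 and Adipoq covariates, the fits without injured inhibitor 1 and 2 and the fits that leave 1 of 16 libraries out were chosen after seeing the data. No value that passed its test changed sign. Depth limits the genes of few counts, such as Ms4a7, Ccl8 and Timp1, whose lowest healthy value was 0.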

Other observations

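Ucp1, the uncoupling protein of brown fat, was counted in 4 of the 12 libraries. It was at 0.561 CPM in injured inhibitor 1, 2.02 in injured inhibitor 4 and 1.39 in injured placebo 4, and at 0 in the other 3 injured libraries. Among healthy libraries it was at 0.149 CPM in inhibitor 3 and at 0 in the other 5. Cidea, a lipid droplet protein of brown fat, was at 0.413, 1.16 and 4.37 CPM (lowest, median and highest) in injured and 0.0518, 0.354 and 1.12 CPM in healthy libraries, a log2 difference of 1.69 ± 0.65 with an edgeR adjusted p of 0.817. Its highest value, like that of Ucp1 and of Adipoq, was in injured inhibitor 4. Of the 4 animals with both limbs, 1 had Cidea higher in the injured limb. Both genes were chosen from the adipocyte list after their values were seen.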
